A study of Mus musculus with 12 samples.

Results

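The oocytes described here lacked Rnaseh1 and were sampled at the last 2 of 3 stages of growth in the female mouse. The comparison sets the KO FGO group against the KO GO group, which hold 4 of the 12 samples of the series, 2 per group. KO is the name in the labels, and the same columns are headed Rnaseh1 oo-/- in the deposited table, an oocyte deletion of Rnaseh1. The 2 WT groups used for comparison, GO and FGO, are headed Rnaseh1 fl/fl, that is oocytes with the floxed gene. The labels do not spell out the stages, which in this field commonly stand for growing (GO) and fully grown (FGO) oocytes. The line and promoter driving the recombinase, the deleted exons, the strain and the mice's ages are not given in these sources. Each sample pooled 10 oocytes, to which 100 pg of the ERCC spike-in mix was added, and polyadenylated RNA was copied and amplified by Smart-seq2, a full-length cDNA method. The table holds 1 column per group, so 2 KO columns are compared, and whether a column is a mean of both samples, a pool or 1 of them is not stated. All 25162 genes of the table were considered, and the 10110 (40.2%) with a mean of at least 1 over the 6 columns were compared.

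RNase H1 cuts the RNA strand of RNA-DNA hybrids, which form when a transcript pairs with its template and leaves an R-loop. A mouse oocyte grows while arrested in meiotic prophase and transcribes a large store of maternal mRNA. Towards the end of growth its genome falls silent, and later steps, meiotic maturation and the first cleavage, run on stored mRNA whose stability and translation are then regulated. The study asked whether R-loops must be cleared by RNase H1 before this silencing, as its title states. The GO to FGO step covers the window in which silencing normally sets in.

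Values are FPKM (fragments scaled to transcript length and library size), which the authors adjusted to the spike-in. A step is the FGO column minus the GO column in log2(FPKM + 1), so a step of 1 is a doubling and steps of low genes are understated. Genes are called higher or lower at 2-fold or more, a step of at least 1 or at most -1, and "rose" and "fell" are used only for such calls. Each step was also computed on rescaled columns, each divided by the median over genes of its ratio to the geometric mean of all columns. The rescaled step compares a gene with the other genes of its column and no longer holds the change in overall level. With 1 column per group there is no replicate check, SD or p-value, and the depth behind a value is unknown. In a pool, fewer contributing oocytes and less RNA per oocyte cannot be told apart.

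Between GO and FGO the KO table went up almost as a whole. Of the 10110 genes, 9057 had a higher value at FGO than at GO and 1053 a lower one. The median step was 0.84, or 1.79-fold, with quartiles of 0.41 and 1.22. At 2-fold, 3946 genes (39.0%) rose and 52 (0.514%) fell. In WT, where no column is shared with the KO step, the median step was 0.08, with 657 genes higher (6.50%) and 932 lower (9.22%).

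After rescaling, the KO step had a median of 0.04. Then 649 genes (6.42%) were higher and 370 (3.66%) lower, against 584 (5.78%) and 842 (8.33%) in WT. The rescaling divided the KO FGO column by a factor 1.85 times that of KO GO, while the WT factors differed by 1.01 times. On the rescaled scale the KO distribution had a shorter lower side than WT, with a 5th percentile of -0.92 in KO and -1.25 in WT. The upper sides were closer, with 95th percentiles of 1.14 and 1.07.

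**Figure D1:**
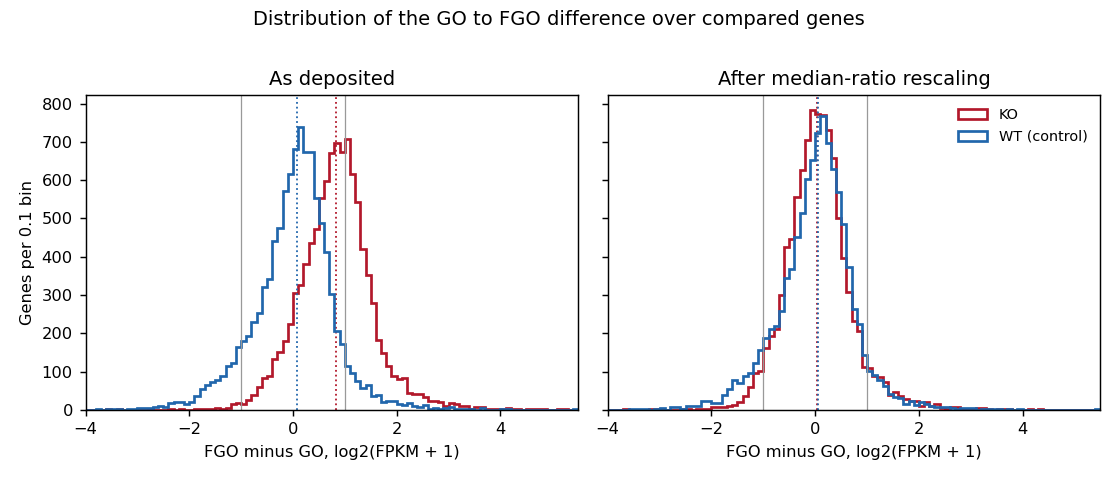
Number of genes by GO to FGO step in log2(FPKM + 1), for KO (red) and WT (blue), as deposited (left) and rescaled (right), over 10110 genes, with dotted medians and grey lines at the 2-fold limits. As deposited the KO curve is centred on 0.84 and the WT curve on 0.08, and after rescaling the medians are 0.04 and 0.06.

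The rise was spread over many genes. Gains summed to 376570 FPKM and losses to -4177 FPKM over the compared genes, and the 353 genes with the largest gains made up 50% of the net rise. The 10 largest gains made up 7.03%. The 100 most abundant genes held 30.4% of the column sum at GO and 29.3% at FGO. Genes at 100 FPKM or more numbered 653 at KO GO and 1453 at KO FGO, and 712 and 879 in WT.

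The most abundant mRNAs of the KO FGO column, named here after their values were seen, include many genes known from oocytes. Bcl2l10, an oocyte-rich member of the Bcl2 family, went from 2880.5 to 8095 FPKM (step 1.49) and in WT from 4633 to 6979. Elobl, an elongin B-like gene, went from 1821 to 5851 (step 1.68). H1f8, the oocyte linker histone, went from 2156 to 4929 (step 1.19). Btg4, the adaptor that recruits the CCR4-NOT deadenylase to maternal mRNA, went from 1262 to 3799 (step 1.59), and Gyg, the primer of glycogen synthesis, from 1855 to 3763 (step 1.02). These 5 rose. The other 5 of the top 10 did not reach 2-fold. Zp3 of the egg coat stood at 4065 FPKM at GO and 5061 at FGO, Nlrp14 at 3325 FPKM at GO and 4220.3 at FGO, and Tle6 of the subcortical maternal complex at 2894 FPKM at GO and 4089 at FGO. Zbed3, a partner of that complex, stood at 3226 FPKM at GO and 3758 at FGO. Padi6, needed for the oocyte's cytoplasmic lattices, was the only one of the 10 with a lower value at FGO, 4416 FPKM after 5524.

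Rnaseh1 checks the label. Its KO values were 0.931 FPKM at NGO (the earlier, non-growing stage), 3.10 at GO and 8.02 at FGO, against 27.8 and 29.1 in WT GO and FGO. Both KO columns used here were below both WT columns. The KO step of the remaining Rnaseh1 signal was 1.14, and 0.36 rescaled.

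All 15 oocyte markers were above 30 FPKM in both KO columns. Their sum went from 22659.9 FPKM to 28512, and in WT from 19182 to 14956. Granulosa cells are the somatic cells that surround the oocyte. Of their 24 markers, 3 were at 1 FPKM or more at KO GO and 9 at KO FGO, against 4 and 6 in WT, and 5 of the 7 compared rose in KO. Serpine2, high in every column, stood at 228 FPKM at GO and 416 at FGO in KO. The other 23 summed to 14.6 FPKM at KO GO and 80.4 at KO FGO, and to 18.3 and 36.8 in WT. Esr2 was the largest of these 23, at 9.47 and 37.3 in KO and 8.28 and 21.3 in WT. Cyp19a1 (aromatase) went from 0.268 to 10.4 in KO and 0.684 to 6.16 in WT, Inha (inhibin alpha) from 0.260 to 9.32 and 0.438 to 1.17, and Gja1 (connexin 43) from 0.156 to 6.96 and 0.236 to 0.965. The defining markers Amh (0.282), Foxl2 (0) and Wnt4 (0) were at or near 0 in KO FGO. The part of these markers in the KO step was not tested. Summed over the lists, theca and stroma markers reached 5.04 FPKM in KO FGO, immune markers 2.21 and endothelial and blood markers 17.7, of which Pecam1 made up 14.6.

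The genes that rose most were mainly ones that also rose in WT, which held for 13 of the 15 named, and many are known best from other tissues. Rgn, the calcium-binding protein regucalcin, went from 2.01 to 117 FPKM in KO (step 5.29, rescaled 4.32) and from 5.47 to 108 in WT. Slc6a15, a neutral amino acid transporter, went from 0.774 to 61.6 in KO (step 5.14, rescaled 4.11) and from 3.31 to 35.4 in WT. Epsti1, an interferon-inducible gene, went from 3.75 to 124 in KO (step 4.72, rescaled 3.79) and from 12.1 to 73.2 in WT. In all 3 the KO value was below WT at GO and above it at FGO.

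The same order of values held for the next 8, except for Olfr288 at FGO. Slc9b1, a sodium-proton exchanger, went from 0.780 to 40.3 in KO and 2.65 to 29.2 in WT. Cxcr3, a chemokine receptor, went from 0.843 to 35.3 in KO and 2.01 to 14.5 in WT. Nmu, the neuropeptide neuromedin U, went from 0.289 to 22.7 in KO and 1.09 to 15.5 in WT. Htr5a, a serotonin receptor, went from 0.667 to 30.04 (WT 1.48 to 25.1), and the olfactory receptor Olfr288 from 1.87 to 51.5 (WT 6.94 to 66.8). Dnajc5b, a cysteine string protein, went from 1.499 to 41.8 (WT 2.405 to 36.7). Mbd3l2, an Mbd3-like gene, went from 11.4 to 194 (WT 29.4 to 138), and Dab2, an endocytic adaptor, from 1.402 to 37.8 (WT 4.67 to 25.7). Rescaled KO steps of these 8 lay between 3.05 and 3.52, and their rescaled WT steps between 2.16 and 3.34. Olfr288 has a near-identical predicted gene in the annotation, so its reads could be shared. Tuba3b, a germ-cell alpha tubulin, went from 1.79 to 47.1 (WT 1.76 to 33.8), and its close copy Tuba3a from 91.6 to 474 (WT 119.8 to 289). Raet1d, a ligand of the NKG2D receptor, went from 1.52 to 50.3 (WT 1.95 to 30.3), and overlaps the similar Raet1e, which went from 9.17 to 24.0.

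Largest among the rises of genes at 100 FPKM or more, beyond those already given, were the following. Aldh1a2, the enzyme that makes retinoic acid, went from 6.84 to 115 (rescaled step 2.98) in KO and from 12.4 to 53.05 in WT. Crabp2, a carrier of retinoic acid, went from 24.6 to 329.7 (rescaled step 2.80) in KO and from 36.5 to 226 in WT. Dnajb4, an Hsp40 chaperone, went from 16.1 to 145 (rescaled step 2.2), Ehf, an Ets-family transcription factor, from 24.2 to 171 (1.88) and Epp13 from 19.0 to 133 (1.86).

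A few values of this kind come from genes with close copies or an overlapping gene, and cannot be read gene by gene. Rps27, a ribosomal protein gene, was listed at 0.305 FPKM at GO and 36.0 at FGO in KO, and its retrogene Rps27rt at 43.4 FPKM at GO and 33.6 at FGO. The sum of both went from 43.7 FPKM to 69.6 in KO, a step of 0.66 (rescaled -0.21), and from 59.5 to 63.9 in WT. Amd1, an enzyme of polyamine synthesis, was listed at 0.0150 and 9.13, while the sum with its copy Amd2 went from 58.5 to 127.7. Eif3j1, a translation initiation factor subunit, went from 10.1 to 0.0980 and its copy Eif3j2 from 5.04 to 34.4, and their sum from 15.2 to 34.5. Slc24a5, a cation exchanger listed at 7.52e-06 and 10.2 FPKM, shares exonic bases with Myef2 on the other strand, and Cyp2c69 (0.0556 and 8.39) has similar neighbours. For Gypc, the red cell membrane protein glycophorin C, no such copy or overlap was found. It was listed at 0.0134 and 13.6 in KO, and at 0.570 and 7.90 in WT.

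Clec2f, a C-type lectin, stood apart from the others. In KO it went from 1.97 to 71.9 FPKM (step 4.62), while in WT it was listed at 12.8 at GO and at 0 at FGO. The KO FGO column was the highest of the 6, and the WT FGO column the lowest.

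**Figure D2:**
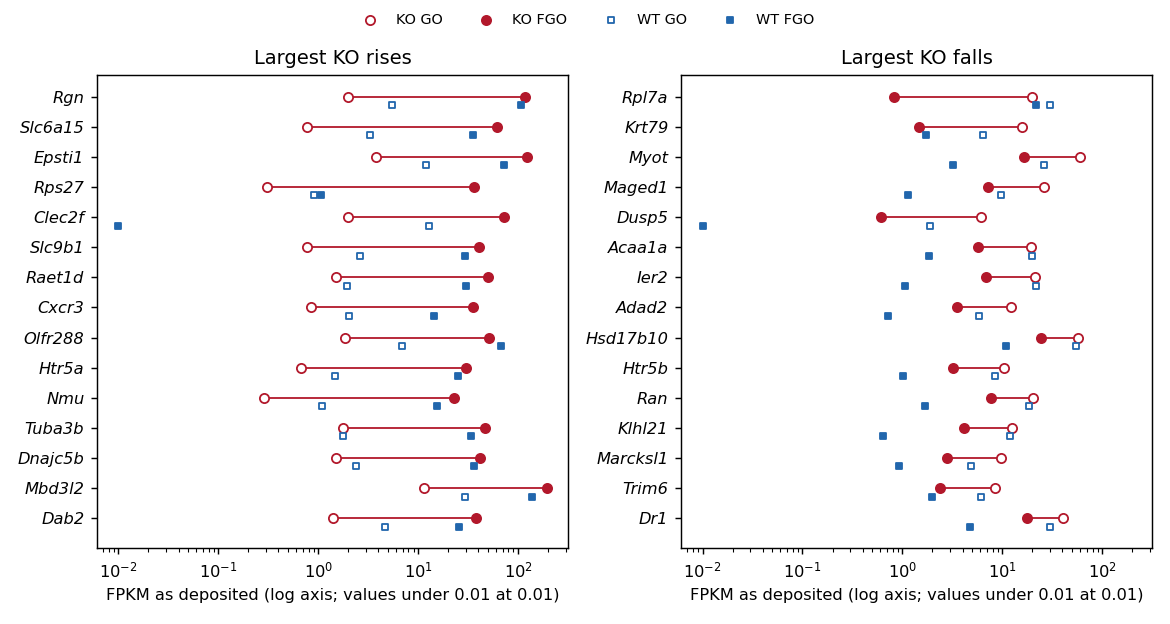
FPKM as deposited, on a log axis, of the 15 genes with the largest rescaled KO rises (left) and the 15 with the largest falls (right), with KO as red circles and WT as blue squares, open for GO and filled for FGO. On the right, KO FGO lies above WT FGO in 13 of 15 genes, all but Rpl7a (0.815 in KO, 21.7 in WT) and Krt79 (1.46 and 1.73).

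Promoters of genes with the largest steps are shown for their CpG, the dinucleotide that is methylated in DNA, since the step went with its number over all genes. They run from 250 bases before to 50 bases after the annotated start, 5′ to 3′ along the gene, from RefSeq on GRCm38.p6, with each CpG in capitals. Left out here were genes with a similar copy or with 20% or more of their exonic bases under an antisense gene. These were Rps27, Raet1d, Olfr288 and Tuba3b of the rises, and Rpl7a, Dusp5 and Klhl21 of the falls. Acaa1a was kept, although 13.8% of its exonic bases lie under Myd88 on the other strand. The 3 remaining with the largest rescaled rise that could be shown are Epsti1 (chr14:77903989-77904288, plus strand, 2 CpG), Slc9b1 (chr3:135347779-135348078, plus strand, 10 CpG) and Cxcr3 (chrX:101734098-101734397, minus strand, 4 CpG). Rgn and Slc6a15 had no entry.
Epsti1: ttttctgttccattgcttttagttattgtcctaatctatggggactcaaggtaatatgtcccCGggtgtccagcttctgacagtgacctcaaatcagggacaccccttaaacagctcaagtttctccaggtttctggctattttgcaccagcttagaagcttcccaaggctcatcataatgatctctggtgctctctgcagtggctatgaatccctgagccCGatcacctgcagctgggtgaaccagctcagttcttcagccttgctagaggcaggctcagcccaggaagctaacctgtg
Slc9b1: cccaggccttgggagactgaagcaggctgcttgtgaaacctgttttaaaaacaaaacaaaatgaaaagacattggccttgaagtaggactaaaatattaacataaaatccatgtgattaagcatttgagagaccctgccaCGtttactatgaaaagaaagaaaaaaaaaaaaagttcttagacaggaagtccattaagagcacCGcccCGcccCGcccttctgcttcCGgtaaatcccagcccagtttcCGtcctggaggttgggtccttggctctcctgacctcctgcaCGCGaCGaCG
Cxcr3: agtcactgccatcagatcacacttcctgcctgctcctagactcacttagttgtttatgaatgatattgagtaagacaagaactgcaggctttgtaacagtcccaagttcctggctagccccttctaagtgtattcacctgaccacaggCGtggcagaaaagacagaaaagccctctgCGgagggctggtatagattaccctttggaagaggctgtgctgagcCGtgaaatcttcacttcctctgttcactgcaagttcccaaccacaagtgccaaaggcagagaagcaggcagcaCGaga
The 3 with the largest fall that could be shown are Krt79 (chr15:101940275-101940574, minus strand, 3 CpG), Maged1 (chrX:94541976-94542275, minus strand, 20 CpG) and Acaa1a (chr9:119341044-119341343, plus strand, 10 CpG).
Krt79: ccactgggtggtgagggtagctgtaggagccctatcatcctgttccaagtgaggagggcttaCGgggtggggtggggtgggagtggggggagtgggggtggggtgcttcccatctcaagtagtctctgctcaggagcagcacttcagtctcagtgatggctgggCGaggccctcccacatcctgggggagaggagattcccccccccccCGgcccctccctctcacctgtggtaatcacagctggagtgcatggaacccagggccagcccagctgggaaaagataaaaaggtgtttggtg
Maged1: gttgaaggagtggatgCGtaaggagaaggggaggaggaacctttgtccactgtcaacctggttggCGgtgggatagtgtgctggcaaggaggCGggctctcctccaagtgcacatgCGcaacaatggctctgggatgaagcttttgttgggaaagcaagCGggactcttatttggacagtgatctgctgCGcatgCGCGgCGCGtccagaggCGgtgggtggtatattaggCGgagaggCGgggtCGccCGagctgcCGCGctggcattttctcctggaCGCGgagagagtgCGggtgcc
Acaa1a: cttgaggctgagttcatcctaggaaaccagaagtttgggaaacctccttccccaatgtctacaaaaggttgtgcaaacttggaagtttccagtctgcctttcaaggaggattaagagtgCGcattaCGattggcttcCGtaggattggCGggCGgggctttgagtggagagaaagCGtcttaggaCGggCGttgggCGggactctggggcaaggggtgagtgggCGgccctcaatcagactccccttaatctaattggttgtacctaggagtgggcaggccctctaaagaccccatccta
Among these named rises, 7 genes had an entry, with 0 to 21 CpG and a median of 4. Mbd3l2 had 0, and Epsti1 and Dab2 2 each. Among the named falls, 9 had an entry, with 3 to 58 CpG and a median of 18. Ran had the most, 58.

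Falls were few. As deposited 11 of the 15 named had a less deep step in KO than in WT, and after rescaling 8 had. Maged1, Adad2 and Marcksl1 then had the deeper step in KO. Their WT FGO values were 1.13, 0.714 and 0.935 FPKM, where adding 1 before the log understates a fall. Ier2, an immediate early gene, went from 21.2 to 6.88 FPKM in KO (step -1.49) and from 21.8 to 1.05 in WT (step -3.47). Ran, the GTPase of nuclear transport and spindle assembly, went from 20.4 to 7.75 in KO (step -1.29) and 18.3 to 1.68 in WT (step -2.85). Dr1, which represses transcription through TBP, went from 40.1 to 17.7 in KO (step -1.13) and 29.9 to 4.79 in WT (step -2.42). GO values of these 3 were close between the genotypes or somewhat higher in KO, and their FGO values were several times higher in KO.

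The others of the 15 had varied roles. Acaa1a, a peroxisomal thiolase, went from 19.2 to 5.73 in KO and 20.04 to 1.83 in WT. Hsd17b10, a mitochondrial dehydrogenase, went from 57.8 to 24.1 in KO and 54.8 to 10.9 in WT. Myot, the actin-binding protein myotilin, went from 59.8 to 16.4 in KO and 26.2 to 3.24 in WT. Maged1, a MAGE-family adaptor, went from 26.4 to 7.27 (WT 9.61 to 1.13). Both Myot and Maged1 were already higher in KO than in WT at GO. Adad2, a germ-cell gene with an adenosine deaminase domain, went from 12.2 to 3.50 (WT 5.91 to 0.714), the serotonin receptor Htr5b from 10.5 to 3.18 (WT 8.50 to 1.01), and Trim6, a ubiquitin ligase, from 8.53 to 2.404 (WT 6.07 to 1.99). Marcksl1 went from 9.66 to 2.82 (WT 4.88 to 0.935). Klhl21, a cullin adaptor, went from 12.6 to 4.14 (WT 12.0 to 0.646) and Dusp5, an ERK phosphatase, from 6.12 to 0.604 (WT 1.89 to 0). Both have 20% or more of their exonic bases under an antisense gene, and Acaa1a has 13.8% under Myd88. The library does not mark strand.

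In the other 4 the KO step was the deeper one on both scales. Trim6 had steps of -1.49 in KO and -1.24 in WT, and Dusp5 of -2.15 and -1.53. Dusp5 was listed at 0 in WT FGO, so its WT step was the lowest that 1.89 FPKM at GO allows. Krt79, a keratin, went from 15.8 to 1.46 in KO (step -2.77) and 6.47 to 1.73 in WT (step -1.45). Rpl7a, a ribosomal protein gene, went from 19.9 to 0.815 in KO (step -3.52) and 29.9 to 21.7 in WT (step -0.45), but has near-identical processed copies in the genome, so its value is uncertain.

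No gene at 100 FPKM or more fell 2-fold as deposited. Id3, an inhibitor of bHLH factors, had the lowest rescaled KO step of them, at -1.73, with 184 FPKM at GO and 101 at FGO in KO, against 195 and 17.0 in WT. Zfp707, a zinc finger gene, stood at 109 FPKM at GO and 61.5 at FGO in KO and 89.2 and 6.55 in WT. Ddx4, the germ-cell helicase Vasa, stood at 123 FPKM at GO and 80.1 at FGO in KO and 72.8 and 15.4 in WT. Patl2, a regulator of oocyte mRNA translation, stood at 168 FPKM at GO and 126 at FGO in KO and 125 and 24.0 in WT. Each of the 4 fell in WT, and their KO steps were between -0.87 and -0.42. Hsph1, an Hsp110 chaperone, stood at 221 FPKM at GO and 166 at FGO and Gnas, which encodes the stimulatory G protein that holds meiotic arrest, at 104 FPKM at GO and 84.4 at FGO. Hmga1b stood at 290.2 FPKM at GO and 244 at FGO and has a near-identical copy, Hmga1.

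The KO and WT steps were furthest apart, by class medians, in the genes that fell in WT. The 932 genes lower in WT had a median step of -1.38 there, by the way they were chosen, and of -0.15 in KO. Of them, 41 (4.40%, all genes 0.514%) fell in KO, 11 (1.18%, all genes 39.0%) rose, and the other genes stayed within 2-fold. Their summed FPKM went from 16491 to 5405 in WT, 0.328 times, and from 15458 to 14790 in KO, 0.957 times. Those 41 genes are 78.8% of the 52 that fell in KO.

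In the 657 genes higher in WT the KO step was higher still. Their median step was 1.37 in WT and 2.11 in KO, and 646 of them (98.3%, all genes 39.0%) also rose in KO. These 646 are 16.4% of the 3946 that rose in KO. Their sum went up 3.06 times in WT and 3.65 times in KO. The 8521 genes within 2-fold in WT had a median KO step of 0.86, close to that of all genes.

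After rescaling, the part shared by all genes is gone and the lower side still differed. The 842 genes then lower in WT had a median of -1.35 in WT and -0.83 in KO. Of these 842, 264 (31.4%, all genes 3.66%) were lower in KO. The 584 genes then higher in WT had medians of 1.34 and 1.32, and 441 (75.5%, all genes 6.42%) were higher in KO. Choosing genes by their WT columns alone makes the WT step look larger, so the reverse choice is given too. The 370 genes lower in KO after rescaling had a median of -1.18 in KO and -1.40 in WT, and the 649 higher ones 1.35 in KO and 1.23 in WT. Whether chosen in WT or in KO, the genes that went down had the lower median in WT.

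Across the 10110 genes the KO and WT steps had a Pearson r of 0.813 and a Spearman rho of 0.829. These describe 4 columns over genes, which are not independent replicates. The SD of the rescaled steps across genes was 0.634 in KO and 0.731 in WT. The KO step minus the WT step had a median of 0.80, with 2933 genes (29.0%) at 1 or more and 15 (0.148%) at -1 or less. Rescaled, the median was 0.02, with 196 (1.94%) and 49 (0.485%).

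**Figure D3:**
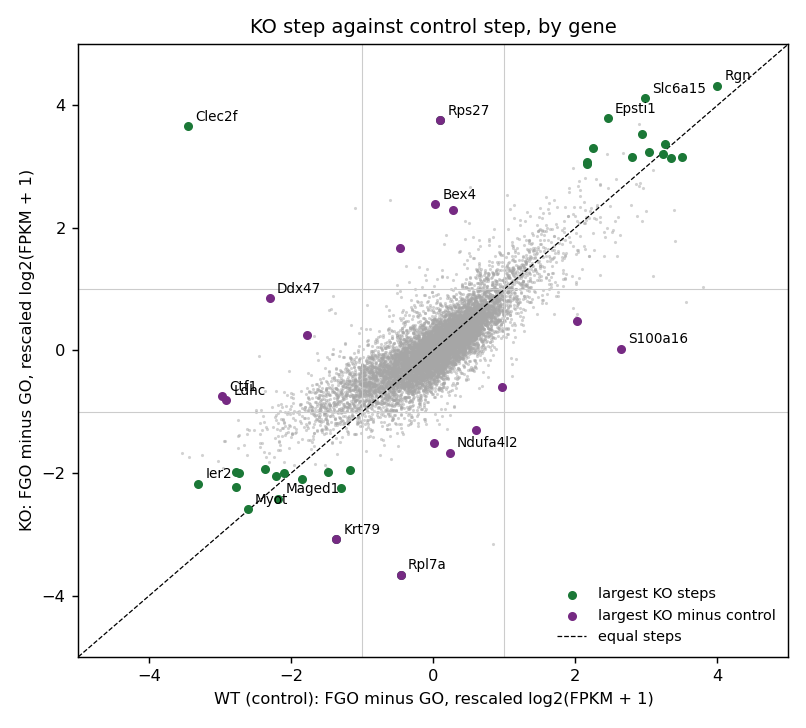
Rescaled KO step against rescaled WT step in log2(FPKM + 1), 1 point per gene for 10109 genes (1 lies outside the axes), with the named genes coloured and a dashed line of equal steps. Points at the left, where WT fell, lie mostly above the dashed line, as the medians of -1.35 in WT and -0.83 in KO describe.

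Single genes departed from WT in several ways. Ddx47, a helicase of ribosome assembly, went up in KO, from 21.4 to 73.0 FPKM (step 1.72), and down in WT, from 52.3 to 9.70 (step -2.32). Ldhc, the germ-cell lactate dehydrogenase, stood at 107 FPKM at GO and 111 at FGO in KO (step 0.06) and fell from 157 to 19.9 in WT (step -2.92). Ctf1, the cytokine cardiotrophin 1, stood at 12.7 FPKM at GO and 13.03 at FGO in KO and fell from 14.3 to 0.695 in WT. Rescaled KO steps were 0.85 for Ddx47, -0.81 for Ldhc and -0.75 for Ctf1, and rescaled WT steps -2.30, -2.92 and -2.98. A pair of related X-linked genes rose in KO and stayed level in WT. Bex4 went from 2.56 to 34.3 in KO and 9.11 to 9.42 in WT, and Tceal9 from 2.97 to 35.7 in KO and 8.77 to 11.1 in WT. Smim27 (0.890 to 2.38 in KO, 6.41 to 0.966 in WT) overlaps Ndufb6 on the other strand.

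In the other direction the departure often came from a high KO value at GO. S100a16, a calcium-binding protein, went from 7.65 to 14.5 in KO and 1.19 to 14.4 in WT, so that both FGO values were close. Ifitm10 went from 7.57 to 4.32 in KO and 1.41 to 2.85 in WT. Ndufa4l2, a mitochondrial protein known from low oxygen, went from 10.1 to 4.31 in KO (step -1.06) and 4.25 to 5.27 in WT. Haus7, a subunit of the augmin complex, went from 13.9 to 36.6 in KO and 6.85 to 32.3 in WT. Zfp580 went from 6.41 to 2.70 in KO (step -1.0) and 3.06 to 3.13 in WT. Rpl30 went from 3.92 to 4.02 and 3.98 to 9.11, and overlaps an antisense transcript over 49.9% of its exonic bases.

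Gene lists of oocyte functions are given next, each with its members called as deposited beside the 39.0% of all genes that rose. Rescaled medians, given for some lists, stand beside the 0.04 of all genes. Of the oocyte transcription factors 7 of 18 rose and 0 fell, with a rescaled median of -0.22. Obox1 went from 117 to 512 FPKM (rescaled 1.23) and Obox7 from 62.7 to 275 (rescaled 1.23), although Obox genes are near-identical and can share reads. Figla, which switches on the egg coat genes, stood at 44.6 FPKM at GO and 35.3 at FGO (rescaled -1.17), and Tbpl2, the oocyte's TBP paralog, at 44.3 FPKM at GO and 39.5 at FGO (rescaled -1.01), where WT had 37.8 and 9.18.

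Egg coat and sperm-binding genes had the lowest rescaled median of the lists, -0.64 over 6 genes, with -0.73 in WT. Only Izumo1r, the egg's receptor for sperm Izumo1, rose, from 183 to 599.6 FPKM. Zp2 stood at 3521 FPKM at GO and 3584 at FGO in KO, against 2892 and 1595 in WT. Astl, the protease ovastacin that cuts Zp2 after fertilization, stood at 533 FPKM at GO and 582 at FGO in KO, against 591 and 272 in WT. As deposited the KO step exceeded the WT step by 0.88 for Zp2 and 1.24 for Astl, and after rescaling by 0.02 and 0.38.

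Secreted factors had the highest rescaled median of these lists, 0.39 over 10 genes, and 6 rose. Oosp3 went from 121 to 526 and Oosp2 from 39.8 to 174, both oocyte-secreted proteins. Bmp15, a growth factor of the oocyte for granulosa cells, went from 519 to 1503 (step 1.53) and in WT from 631 to 868. Fgf8 stood at 92.4 FPKM at GO and 145 at FGO and Kit, the receptor of the granulosa factor Kitl, at 86.3 FPKM at GO and 107 at FGO. Of the subcortical maternal complex, which early cleavage needs, 2 of 8 rose, with a rescaled median of -0.36 in KO and -0.14 in WT. Ooep went from 909 to 1871 and Nlrp2 from 210.3 to 444. Nlrp5 stood at 1274 FPKM at GO and 1111 at FGO, a rescaled step of -1.08, and Padi6 had one of -1.21. Other oocyte NLR genes rose in 5 of 8 cases, Nlrp9a from 85.0 to 336 and Nlrp9c from 134 to 435, and Nlrp4c stood at 22.3 FPKM at GO and 23.7 at FGO. Of the further maternal effect genes 7 of 20 rose (rescaled median -0.07).

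Genes that store or destroy maternal mRNA had medians near that of all genes. Of the storage list 5 of 22 rose, and of the decay list 10 of 25. Zar1l, an oocyte RNA-binding protein, went from 61.4 to 283 (step 2.19) in KO and 111 to 208 in WT. Cnot7, a catalytic subunit of the CCR4-NOT deadenylase, went from 32.8 to 142 (step 2.08) in KO and 37.3 to 108 in WT. Paip2, a repressor of poly(A)-binding protein, went from 337 to 849. Cnot3, another CCR4-NOT subunit, stood at 15.1 FPKM at GO and 10.1 at FGO, and Eif4e1b, an oocyte cap-binding protein, at 11.7 FPKM at GO and 9.93 at FGO. Zfp36l2, which binds AU-rich elements and recruits deadenylases, stood at 8.27 FPKM at GO and 3.64 at FGO in KO (step -1.0, rescaled -1.57). In WT it fell from 15.95 to 1.91 (rescaled -2.44).

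Among meiotic genes of arrest and spindle the share that rose was above that of all genes as deposited. After rescaling 2 of 28 and 0 of 29 were higher, beside 6.42% of all genes. Of those for arrest and resumption, 15 of 28 rose and 0 fell, with a rescaled median of 0.23 in KO and 0.20 in WT. Ccnb3, the cyclin that drives anaphase of meiosis I, went from 3.96 to 23.4, and Prkar2b, a regulatory subunit of protein kinase A, from 2.06 to 12.8. Wee1, an inhibitory kinase of Cdk1, stood at 25.2 FPKM at GO and 22.3 at FGO in KO and 18.5 and 4.59 in WT. Of the spindle and checkpoint genes 17 of 29 rose, with a rescaled median of 0.22 in KO and 0.47 in WT. Bub1b, which encodes BubR1, went from 117 to 432 and Plk4 from 34.1 to 125. Ran was the 1 that fell, and Kif4 stood at 112 FPKM at GO and 117 at FGO. Genes of the chromosome axis and synapsis, which act earlier in prophase, rose in 5 of 19 cases, Tex12 from 2.18 to 12.2. The cohesin Smc1b stood at 13.5 FPKM at GO and 8.85 at FGO and Sycp3 at 56.6 FPKM at GO and 46.9 at FGO, although Chpt1 overlaps Sycp3 on the other strand.

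Among chromatin genes, the DNA methylation and histone-modifying lists had rescaled medians below that of all genes, and the histone genes one above it. Of the DNA methylation and imprint genes 3 of 14 rose, and 3 lay above the median gene after rescaling. The rescaled median of this list was -0.17 in KO and -0.33 in WT. Dnmt1 stood at 455 FPKM at GO and 405 at FGO in KO. Kdm1b, the demethylase needed for maternal imprints, stood at 84.6 FPKM at GO and 54.0 at FGO, where WT had 31.6 and 11.04. Rescaled steps in KO and WT were -1.05 and -0.54 for Dnmt1, and -1.49 and -1.43 for Kdm1b. Dnmt3l, the partner of Dnmt3a in oocytes, went from 5.63 to 19.8, and Zfp57, which protects imprints, from 979 to 2178. Of the histone-modifying enzymes 5 of 32 rose (rescaled median -0.20), among them the H3K36 methylase Nsd1, from 4.86 to 18.1. Ehmt2, the H3K9 methylase G9a, stood at 3.46 FPKM at GO and 1.75 at FGO. Of the Polycomb genes 10 of 25 rose, Yaf2 from 11.2 to 48.2, and Cbx2 stood at 44.0 FPKM at GO and 44.0 at FGO. Histone genes rose in 16 of 25 cases (rescaled median 0.35, WT 0.43), but their mRNAs mostly lack a poly(A) tail and are poorly captured.

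Of the polymerase II, initiation and elongation genes 30 of 54 rose and 0 fell as deposited. After rescaling 3 were higher and 2 lower, beside 6.42% and 3.66% of all genes. The small subunit Polr2d went from 131 to 491 in KO and 176 to 426 in WT. Polr2a, the catalytic subunit, stood at 5.77 FPKM at GO and 3.21 at FGO in KO (step -0.69) . In WT it fell from 3.86 to 1.28. After rescaling Polr2a was called lower in both, with steps of -1.24 in KO and -1.01 in WT. Ell2, an elongation factor, stood at 20.1 FPKM at GO and 14.2 at FGO in KO (rescaled step -1.26). In WT it fell from 23.4 to 5.13 (rescaled -1.96). Of the polymerase I and III genes 5 of 25 rose. Ubtf, which opens ribosomal DNA for polymerase I, stood at 11.2 FPKM at GO and 7.88 at FGO in KO (rescaled step -1.18). In WT it fell from 12.5 to 1.26 (rescaled -2.45).

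Other genes of R-loop control had medians near that of all genes. Among the RNase H2 subunits, Rnaseh2c went from 12.7 to 39.4 (but overlaps Kat5), Rnaseh2a stood at 1.84 FPKM at GO and 3.28 at FGO and Rnaseh2b at 8.74 FPKM at GO and 11.5 at FGO. Of the R-loop helicases, topoisomerases and partners 11 of 37 rose, with a rescaled median of 0.02. Rpa3, a subunit of the single-strand binding protein RPA, went from 39.7 to 162, and Pif1, a helicase, stood at 2.87 FPKM at GO and 2.28 at FGO. Of the THO and mRNA export genes 7 of 19 rose, Nxt1 from 66.2 to 187, and Alyref, an export adaptor, stood at 12.9 FPKM at GO and 13.4 at FGO.

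Genes of DNA damage and cell death had medians near that of all genes. Of the double-strand break repair genes 15 of 39 rose (rescaled median 0.01), Nhej1 from 44.4 to 151 and Xrcc6, which encodes Ku70, from 31.5 to 81.6, and Parp1 stood at 18.7 FPKM at GO and 15.6 at FGO. Of the p53 and checkpoint genes 8 of 25 rose (rescaled median 0.02). Trp63, whose TA form kills damaged oocytes, stood at 10.8 FPKM at GO and 9.92 at FGO, and Mdm4, an inhibitor of p53, went from 229.6 to 635. Of the Bcl2 family and caspases 6 of 18 rose, among them the abundant Bcl2l10, given above. The pro-death gene Bik went from 4.998 to 26.7 (WT 10.3 to 17.3) and Casp8 from 14.3 to 48.7 (WT 18.1 to 36.6). Mcl1, which protects oocytes, stood at 3.74 FPKM at GO and 3.10 at FGO in KO, and at 6.53 and 1.27 in WT. Nucleic acid sensors rose in 4 of 9 cases. Ddx58, the RNA sensor RIG-I, went from 2.61 to 16.9 in KO and 3.57 to 8.32 in WT, and Cgas, the DNA sensor, from 9.003 to 24.7 and 9.67 to 11.9.

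Stress genes included several of the low steps. Of the cytosolic chaperones 4 of 22 rose, with a rescaled median of -0.42 in KO and -0.15 in WT. Cct5, a subunit of the chaperonin TRiC, went from 342 to 899. Its partner Cct6a stood at 36.4 FPKM at GO and 27.0 at FGO in KO (rescaled step -1.25). In WT Cct6a fell from 27.6 to 4.39 (rescaled -2.36). Id and immediate early genes rose in 1 of 10 cases, had a median of 0.01 as deposited, and -0.49 rescaled (-0.69 in WT). Of the unfolded protein and amino acid stress genes 5 of 20 rose and 1 fell. Ddit3, which encodes CHOP, went from 30.5 to 123 in KO and 56.2 to 87.6 in WT, and Atf4 from 195 to 486 and 241 to 265. Xbp1 fell from 10.4 to 3.597 in KO and from 3.50 to 0.387 in WT.

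Among germ-line RNA genes both directions occurred. Of the piRNA and germ-cell RNA list 7 of 20 rose and 1 fell as deposited. After rescaling 6 were lower, beside 3.66% of all genes, and the list median was -0.17 in KO and -0.30 in WT. Asz1 went from 57.6 to 223 and Tdrd12 from 34.6 to 127, both scaffolds of piRNA production. Piwil2, a Piwi protein, fell from 9.65 to 3.73 in KO and from 9.81 to 0.886 in WT. Genes known from the 2-cell embryo rose in 4 of 6 cases. Zscan4d went from 1.34 to 13.1 in KO and 1.49 to 7.81 in WT, but has near-identical copies that can share its reads. Dppa4, which has a similar processed copy, went from 3.76 to 19.8 in KO and 7.27 to 12.97 in WT. Eif1a stood at 7.98 FPKM at GO and 5.67 at FGO in KO (rescaled step -1.10). In WT Eif1a fell from 6.71 to 0.744 (rescaled -1.98).

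In large housekeeping complexes a larger share rose than over all genes as deposited, but not after rescaling. Then 1 of 42 proteasome, 2 of 75 mitochondrial ribosomal, 4 of 75 cytosolic ribosomal, 0 of 79 respiratory chain and 1 of 37 spliceosomal genes were higher, beside 6.42% of all genes. As deposited the counts were as follows. Proteasome genes rose in 30 of 42 cases (71.4%), with a rescaled median of 0.34 in KO and 0.43 in WT. Psma2 went from 103 to 348 and the inhibitor Psmf1 from 31.5 to 120.5, and Psmd13 stood at 21.6 FPKM at GO and 15.8 at FGO. Of the mitochondrial ribosomal proteins 48 of 75 rose (rescaled 0.37, WT 0.29), Mrps33 from 69.1 to 258, and Mrps26 stood at 37.8 FPKM at GO and 30.9 at FGO. Of the cytosolic ribosomal proteins 44 of 75 rose (rescaled 0.29, WT 0.24). Rps28 went from 1.397 to 23.3, Rps23 stood at 81.6 FPKM at GO and 75.9 at FGO, and Rpl7a was the 1 that fell. Many of these genes have processed copies that can take reads. Of the nuclear-encoded respiratory chain genes 43 of 79 rose (rescaled 0.16, WT 0.31), Cox7b from 5.48 to 18.8. Uqcrc1, a core subunit of complex III, stood at 81.4 FPKM at GO and 46.0 at FGO in KO (rescaled step -1.66). In WT it fell from 51.6 to 8.94 (rescaled -2.39). Spliceosomal genes rose in 19 of 37 cases (rescaled 0.17, WT 0.25), Snrpe from 0.932 to 8.37. The rescaled medians of all these complexes were above that of all genes in KO and in WT.

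Translation, transport and growth lists had rescaled medians nearer to that of all genes, from -0.05 to 0.04. Translation initiation factors rose in 23 of 52 cases, Eif2b4 from 10.1 to 36.5, Eif3j1 was the 1 that fell, and Eif4ebp1, a target of mTOR that blocks eIF4E, stood at 17.0 FPKM at GO and 10.9 at FGO. Aminoacyl-tRNA synthetases rose in 12 of 31 cases, Kars from 32.1 to 83.9. Of the nuclear pore and transport genes 15 of 47 rose, Nup85 from 50.8 to 145, and Xpot, the exporter of tRNA, fell from 6.10 to 2.37 in KO and from 5.46 to 0.218 in WT. Of the PI3K and mTOR genes 5 of 26 (19.2%) rose, a share below the 39.0% of all genes. Rragc, a Rag GTPase, went from 29.3 to 111, and Rptor stood at 5.86 FPKM at GO and 4.48 at FGO.

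Metabolic lists were mostly at or below the median gene. Glycolysis genes rose in 3 of 14 cases (rescaled -0.20), Tpi1 from 25.2 to 74.0. Gapdh stood at 23.4 FPKM at GO and 15.6 at FGO in KO (rescaled step -1.35). In WT Gapdh fell from 15.2 to 3.91 (rescaled -1.68). Cholesterol synthesis genes rose in 5 of 18 cases (rescaled -0.23). Sc5d went from 40.6 to 131, and Pmvk stood at 18.7 FPKM at GO and 12.0 at FGO in KO (rescaled step -1.37). In WT Pmvk fell from 26.3 to 3.21 (rescaled -2.63). The oocyte is known to leave much of both pathways to its granulosa cells. Serine and folate pathway genes rose in 5 of 13 cases, Mthfd2 from 110.0 to 313. Mitochondrial DNA genes rose in 8 of 27 cases. Tfam, which packages mitochondrial DNA, stood at 28.5 FPKM at GO and 28.3 at FGO in KO and fell from 28.6 to 8.27 in WT. Autophagy and lysosome genes rose in 7 of 20 cases. Ctsl went from 1.91 to 12.6 in KO and 2.201 to 1.78 in WT, with an antisense transcript over part of it.

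Among cytoskeletal genes, tubulins rose in 8 of 16 cases. The alpha tubulins Tuba1c and Tuba1b, which are near-identical to each other, stood at 239 FPKM at GO and 235 at FGO and at 197 FPKM at GO and 206 at FGO, where WT had 141 and 70.2, and 120.3 and 60.8. Cortical actin and polarity genes rose in 10 of 27 cases. Spire1, which nucleates the actin mesh of the oocyte, went from 23.0 to 129 in KO and 34.5 to 78.6 in WT. Actb stood at 34.8 FPKM at GO and 19.1 at FGO in KO, a rescaled step of -1.64, and Actg1, which has processed copies, at 231 FPKM at GO and 196 at FGO.

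**Figure D4:**
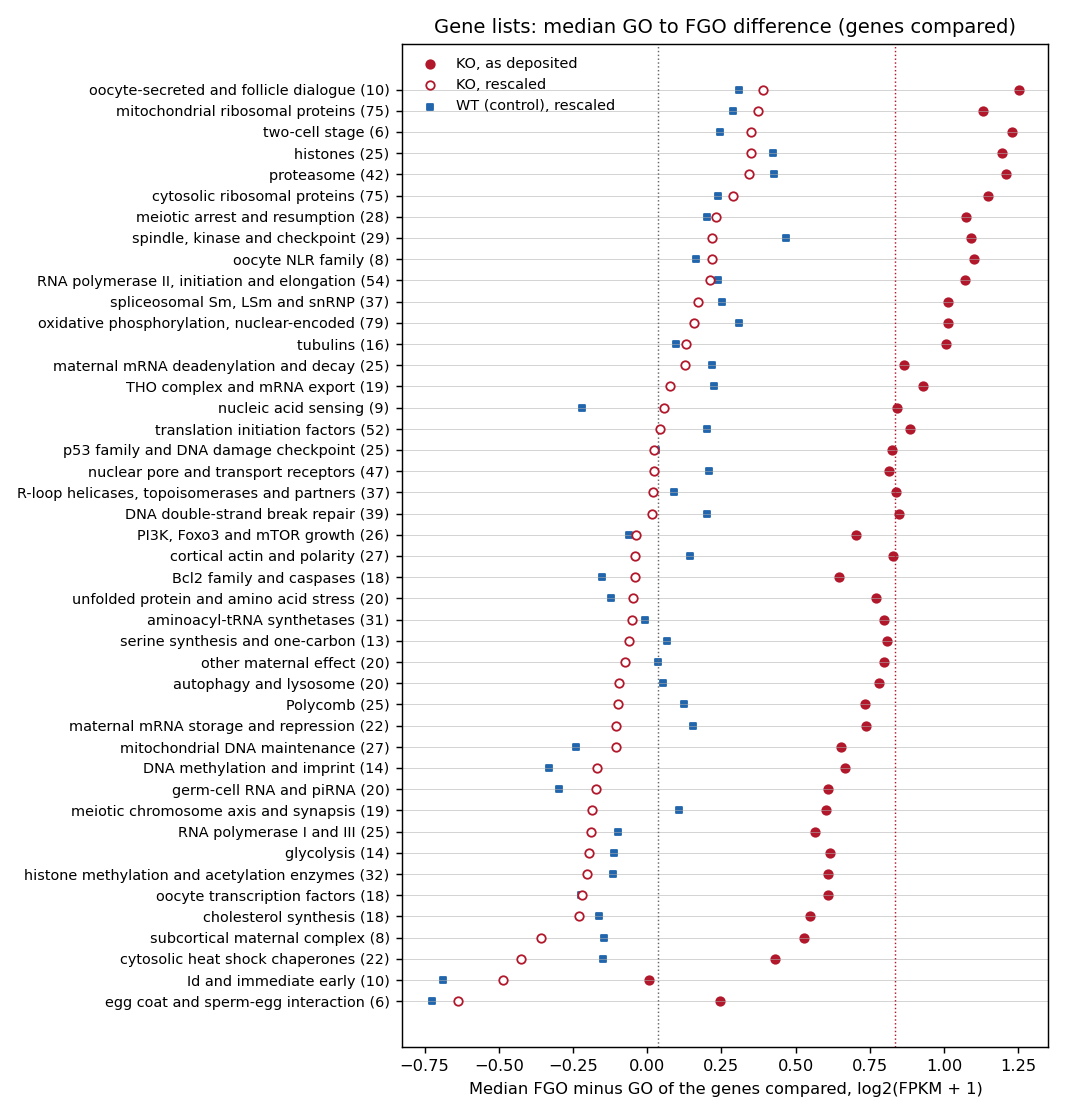
Median GO to FGO step in log2(FPKM + 1) for each gene list with at least 5 genes compared (number in brackets, cell type marker lists not drawn), for KO as deposited (filled), KO rescaled (open) and WT rescaled (blue), with dotted lines at the medians of all genes, 0.84 and 0.04. Secreted factors (0.39) and the egg coat list (-0.64) lie at the ends of the rescaled KO order of the lists drawn.

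Promoter CpG and transcript length, which the choice of comparison did not use, went with the KO step. Genes with few CpG in the promoter had higher steps, over the 8169 compared genes (80.8%) with a RefSeq promoter. With 0 to 2 CpG (338 genes) the median step was 1.28 as deposited and 0.45 rescaled, and 27.5% of the genes were higher after rescaling. With 21 or more (4298 genes) it was 0.77 and -0.03, and 2.70% were higher. Of the 800 genes with fewer than 6 CpG, 191 were higher and 15 lower after rescaling, against 116 and 165 of those with 21 or more. The genes higher after rescaling had a median of 9 CpG, and those lower or within 2-fold 22 each.

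The WT step had the same gradient. Its rescaled median was 0.43 for 0 to 2 CpG and 0.01 for 21 or more. The KO minus WT difference had rescaled medians of 0.10 and -0.0027 in these classes, so the gradient was close to equal in both genotypes. CpG-poor genes (fewer than 6) were above CpG-rich ones (21 or more) in KO in each of the 5 bins of level, by medians of 0.27 against -0.23 at a mean of 1 to 2 FPKM and 0.48 against 0.24 at 100 or more. They were also above them in each of the 5 bins of transcript length, by 0.66 against 0.30 under 1000 nt and 0.09 against -0.08 at 5000 nt or more.

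Level and length went with the step as well. The median KO step was 0.48 at a mean of 1 to 2 FPKM and 1.15 at 100 or more, where 68.0% of the genes rose. This level is the mean over the 6 columns, which the filter used and which includes KO FGO, so it is not independent of the step. On this scale a pseudocount of 1 lowers the steps of genes near 1 FPKM. Genes with a longest transcript under 1000 nt (501) had a median step of 1.17, and those of 5000 nt or more (2049) 0.71. Both orders held after rescaling between the end bins, at -0.08 and 0.27 for level and 0.34 and -0.04 for length. The skew of G over C in the first 50 bases, a feature linked to R-loops, showed no such order in its medians. They lay from 0.81 to 0.86 over 5 bins as deposited and from 0.01 to 0.05 rescaled. The share of genes higher after rescaling was 7.35%, 7.79%, 5.79%, 5.12% and 4.65% from the lowest to the highest skew bin. Chromosome medians lay between 0.73 (chromosome 19) and 0.97 (chromosome 13), and the X chromosome was at 0.89.

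**Figure D5:**
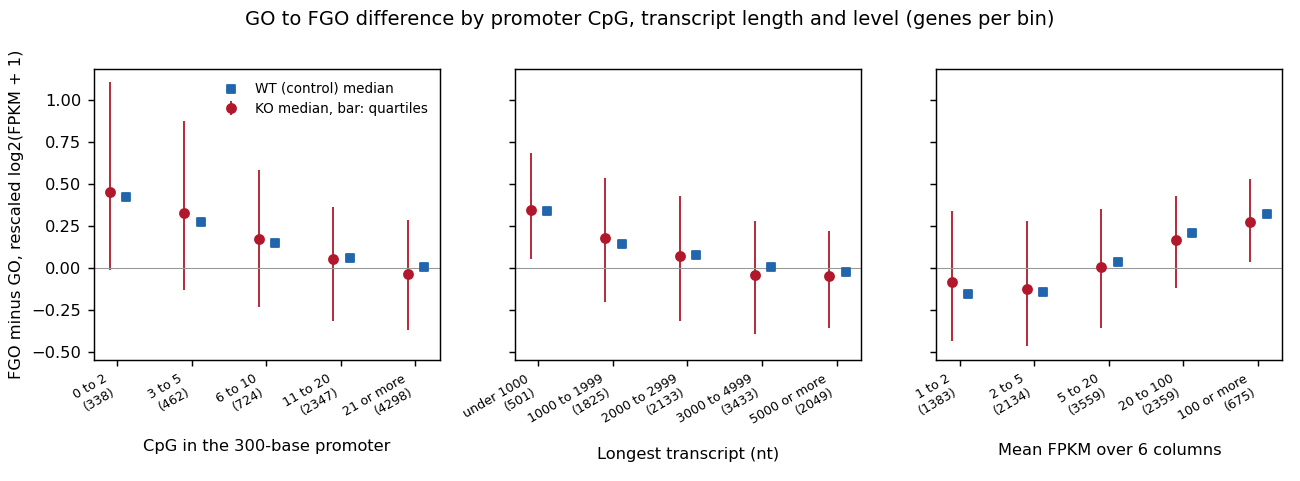
Rescaled KO step in log2(FPKM + 1) by CpG in the 300-base promoter, longest transcript and mean FPKM, as medians (red points) with quartiles (bars, KO) beside the WT medians (blue squares), with genes per bin in brackets. KO medians go from 0.45 to -0.03 with CpG and from 0.34 to -0.04 with length, and the blue squares follow the red points.

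Short motifs were counted on both strands of the same 300 bases, as letters and not as bound sites. Genes higher after rescaling (497 with a promoter) are given beside the 297 lower ones, the 8169 compared and all 27025 promoters of the table. The GC box GGGCGG was in 39.4% of the higher, 68.7% of the lower, 64.4% of the compared and 35.9% of all promoters. TATAAA was in 11.7%, 6.40%, 6.93% and 14.2%. TAATTG or TAATTA, the core bound by the oocyte homeobox factor NOBOX, was in 14.7%, 7.07%, 7.68% and 12.6%. CACGTG, an E-box, was in 7.24%, 12.5%, 10.5% and 7.24%, and CCAAT in 37.2%, 39.1%, 40.5% and 37.9%. GGGCGG contains a CpG, so its share is tied to the CpG count. Promoters of the higher genes had a median of 53.3% GC, against 62.0% in the lower and 61.0% in those within 2-fold. The part of base composition in the shares of TATAAA and of TAATTG or TAATTA was not tested.

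The filter can favour rises, since a gene high only in KO FGO enters through that column. That was so for 385 of the compared genes, of which 201 rose. At the filter's edge, Ncbp1 lay just inside with a mean of 1.0005 FPKM (1.89 FPKM at GO and 1.34 at FGO in KO) and Pfkfb2 just outside with 0.9998 (0.750 and 2.203).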

How the data were processed

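Polyadenylated RNA of mouse oocytes was read as 150 bp pairs on an Illumina instrument after Smart-seq2, per the labels' protocols. The FPKM values were made and adjusted to the ERCC spike-in by the authors, as the deposited table is named. Tools were Cufflinks 2.2.1, HISAT2 2.2.1 and Trim Galore 0.6.7, with build mm10, per the submitters' processing notes. How the adjustment was computed and on which annotation is not given in these sources, and the depth per sample is unknown. Of 25912 lines, 2 with spreadsheet errors were left out, and 333 symbols on several lines kept the one of largest mean. Steps were differences of log2(FPKM + 1), as deposited and after division by the median-ratio factors (KO GO 1.22, KO FGO 2.26, WT GO 1.29, WT FGO 1.31), in Python 3.11.15 with numpy 2.4.6 and pandas 2.3.3, tested on simulated data. Tests were not run, because each group has 1 column.

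Named were Rnaseh1, up to 15 genes per direction by rescaled KO step among those called on both scales (their higher column at 5 FPKM or more, their lower at 0.1 or more), up to 8 per direction at 100 FPKM or more, up to 4 per direction under 0.1 FPKM in the lower column, up to 8 per direction by KO minus WT step, and the 2 highest and 2 lowest of each list. Clone-named genes and symbols on several lines were not named, except in lists. The members, lists and rules were chosen with earlier results of these data known. A few further genes were named after their values were seen. Transcript lengths are from GENCODE M21 (98.3% matched), and promoters from RefSeq on GRCm38.p6. Longest transcripts of named genes were searched with blastn 2.17.0 against GENCODE M21, and 25 of 223 had another gene at 95% identity over 50% of their length. Alternatives were the rescaling, equal column totals, a pseudocount of 0.1, leaving out the filter, a filter at a mean of 5, a filter on the 2 compared columns, leaving out genes listed at 0 or symbols on several lines, and, chosen after seeing the data, a filter on the 4 columns not compared.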

Additional observations from a re-analysis of the deposited data

Results flagged for a closer look

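In 2 genes the KO and WT steps were called in opposite directions on both scales. Clec2f, a C-type lectin, went from 1.97 to 71.9 FPKM in KO and from 12.8 to 0 in WT, and its KO step exceeded its WT step by 8.41 on the log2 scale. Amd1, an enzyme of polyamine synthesis, went from 0.0150 to 9.13 FPKM in KO and from 8.65 to 3.38 in WT, a difference of 4.46. Neither difference was tested, since each group has 1 column. The near-identical Amd2 went from 58.5 to 119 FPKM in KO and from 73.4 to 87.0 in WT, and reads of Amd1 and Amd2 cannot be told apart with certainty. As deposited, 11 genes rose in KO and fell in WT, and 0 did the reverse.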

How the results depend on the processing

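No paired analysis was possible because each group has 1 column, so neither a replicate block nor leaving out a sample was run. For the KO step, against 3946 higher, 52 lower and a median of 0.84, median-ratio rescaling gave 649, 370 and 0.037, and equal column totals 534, 570 and -0.091. A pseudocount of 0.1 gave 104 lower, a mean of at least 5 gave 25 lower, and no filter gave a median of 0.071. For the WT step (657 higher, 932 lower), equal totals gave 389 higher, and a mean of at least 5 gave 362 higher and 427 lower. For the KO minus WT step (2933 higher, 15 lower, median 0.80), rescaling gave 196, 49 and 0.020, and equal totals 252, 39 and 0.10. There a pseudocount of 0.1 gave 30 lower, no filter gave 28 lower and a median of 0.16, and a mean of at least 5 gave 1939 higher and 7 lower. Of 46 list medians 0 were below 0 as deposited, 24 after rescaling and 33 with equal totals, among them the tubulin list, called as deposited, at -0.019. With a filter on the 2 compared columns, symbols on 1 line only, or no genes listed at 0, each count over all genes stayed within 1.5 times its value and each median stayed close. A filter on the 4 columns not compared was run for the KO and WT steps only, with the same outcome. Of 227 single genes, rescaling ended the call of 50 and added one for 41. The higher counts thus rest on the scale of the KO FGO column, which no second column checks. Depth is unknown, so low values have no stated precision.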
